A study of Mus musculus with 6 samples.

Results

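The genes described here encode G protein-coupled receptors through which pancreatic islets sense hormones, nutrients, lipids, purines and neurotransmitters. The list named 38 receptor genes, given by name, and a gene was followed through the probe sets to which the platform annotation gave that single symbol. This gave 54 probe sets for 31 of the 38 genes, of 45101 probe sets in all, and a gene with several was represented by the one with the highest mean log2 value. For Ffar1, Ffar3, Gpr119, Adra2a, Adrb1, Adora1 and Adora2a no such probe set was found, and these 7 genes were not analysed here.

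Islets are small endocrine organs, made of beta, alpha, delta and other hormone-producing cells, embedded in the exocrine pancreas. They had been isolated by collagenase digestion from pregnant mice at 12.5 days post coitum (dpc), 3 arrays, and from non-pregnant mice, given as 0 dpc, 3 arrays, with no other treatment or allele in the labels. Strain, age and the number of animals per array were not given in the labels. The p-values therefore speak only to the spread among these 6 samples, part or all of which may be technical. Each array gave 1 MAS5 signal per probe set, a background-corrected intensity scaled per array.

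The receptors of this group pass a signal from outside the cell to trimeric G proteins inside it. Receptors that couple to Gs raise cAMP, which in beta cells strengthens glucose-stimulated insulin secretion; the incretin and glucagon receptors are the known examples. Receptors that couple to Gi or Go, such as those for somatostatin, lower cAMP and restrain secretion, while Gq-coupled receptors such as the muscarinic receptor Chrm3 act through phospholipase C and calcium. Maternal islets are known to enlarge and to secrete more insulin during pregnancy.

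The 2% trimmed mean of the signal was 500.003 on all 6 arrays and the medians ran between 86.1 and 100.3. Tph1, a serotonin synthesis enzyme known to be induced in islets in pregnancy, had signals of 4914, 4389 and 4944 on the pregnant arrays, against 50.3, 80.8 and 28.6 on the non-pregnant arrays, with no overlap. None of the markers of beta, alpha and other endocrine cells was at the level of the controls for a bacterial transcript on all arrays. These TrpnX controls gave signals of 1.1 to 32.3, and a signal of 32.3 or less is called dim below. Markers of exocrine acinar cells were lower in pregnant islets: 16 of 19 tested fell and 1, Bhlha15, rose, and Rbpjl alone was dim on all 6 arrays. Their summed signal was 121791 to 195436 on pregnant arrays and 204850 to 383022 on non-pregnant arrays. Of 11 stellate cell and fibroblast markers tested 3 fell, Dcn (-1.20), Col1a2 (-0.73) and Col3a1 (-0.75), and Col6a3 rose (0.67), with a median of -0.58 and summed signals of 7717 to 9576 on pregnant and 10455 to 11031 on non-pregnant arrays. Of 7 beta cell markers tested Slc2a2 (-0.25) and Slc30a8 (-0.29) fell, with a list median of 0.02. Irx1 (-0.40) of 4 for alpha cells and Ghrl (-1.14) of 5 for delta, PP and epsilon cells fell, with list medians of -0.23 and -0.06. In these 3 endocrine lists 0 rose. Summed beta cell signals overlapped, at 153983 to 157264 on pregnant and 153150 to 161932 on non-pregnant arrays. Those of alpha cells did not, at 90336 to 94595 on pregnant and 96282 to 100634 on non-pregnant arrays. The delta, PP and epsilon sums overlapped, at 106916 to 116241 and 109583 to 118533. Of 5 duct cell markers tested 2 rose and 1 fell, with a median of 0.33. Their summed signals were 24210 to 25329 on pregnant and 21098 to 21660 on non-pregnant arrays, without overlap. The part of these shifts in the receptor results was not tested. An acinar covariate is given below, but the acinar level itself separated the groups without overlap. Acinar level and pregnancy are thus confounded on these 6 arrays, and a call kept or lost with the covariate does not tell them apart. With islets measured in bulk, fewer cells of a type and less RNA per cell cannot be told apart.

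Of the 31 receptor genes, 22 were bright enough to be tested, which required a mean log2 value in the top 60% of all probe sets, corresponding to a signal of about 50.5. Among these 22, 3 rose in pregnancy (Ffar2, Gprc5c and Oxtr), 6 fell (P2ry1, Cnr1, Gcgr, Casr, Cckar and Vipr1) and 13 did not pass. The test was limma's on log2(signal + 16), with p adjusted by the Benjamini-Hochberg method over all 27022 probe sets tested and a threshold of 0.05. The 9 receptors are 40.9% of those tested. Of all 12914 genes tested 11.9% passed, 6.1% higher and 5.79% lower, and of all probe sets 9.57% passed. The median log2 difference was -0.30 over the tested receptors and -0.04 over all genes tested. The plot of the tested receptors by role shows these differences with their intervals.

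**Figure D1:**
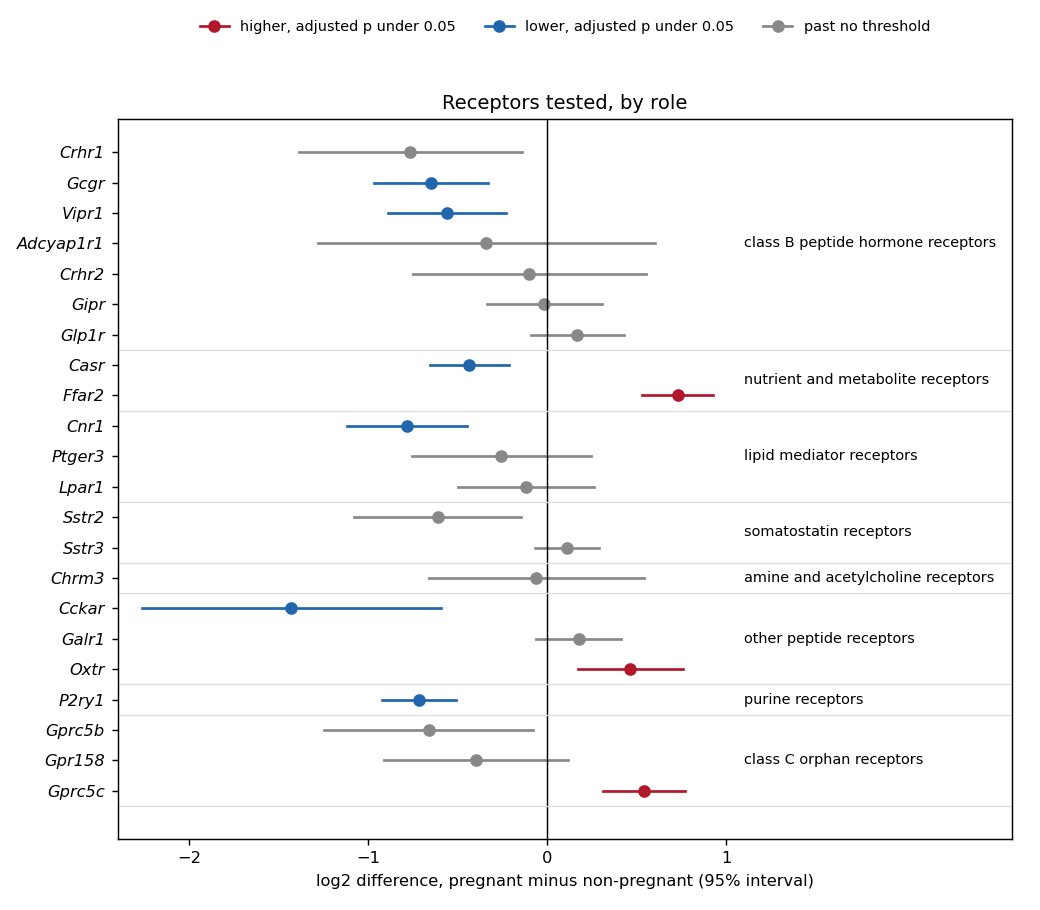
Log2 difference in signal, pregnant minus non-pregnant, with limma's 95% interval (x axis, unadjusted) for the 22 receptor genes tested (y axis), grouped by role. The 3 receptors that rose lie to the right of 0 (Ffar2 at 0.73, Gprc5c at 0.54, Oxtr at 0.47), the 6 that fell lie to the left, and Cckar has the lowest value, -1.43.

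Promoter windows are shown for 4 receptors: Ffar2 and Oxtr as receptors that rose, P2ry1 as the fall with the smallest adjusted p, and Sstr2 as the one receptor whose window held a searched motif. They come from RefSeq, build GRCm38.p6, and run from 250 bases before to 50 bases after a transcript start, 5′ to 3′ on the gene's strand. The Ffar2 window is the first of 4 listed starts, and the other 3 genes have 1 listed start each. Capitals mark a match to the cAMP response element, TGACGTCA, which binds CREB proteins downstream of Gs-coupled receptors.
Ffar2, chr7:30823726-30824025, minus strand: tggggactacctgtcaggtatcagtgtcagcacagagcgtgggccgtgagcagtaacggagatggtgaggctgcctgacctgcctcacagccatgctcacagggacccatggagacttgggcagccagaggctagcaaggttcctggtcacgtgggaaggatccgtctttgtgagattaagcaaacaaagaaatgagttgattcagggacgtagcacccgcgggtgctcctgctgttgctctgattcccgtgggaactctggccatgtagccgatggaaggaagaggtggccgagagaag
Oxtr, chr6:112489776-112490075, minus strand: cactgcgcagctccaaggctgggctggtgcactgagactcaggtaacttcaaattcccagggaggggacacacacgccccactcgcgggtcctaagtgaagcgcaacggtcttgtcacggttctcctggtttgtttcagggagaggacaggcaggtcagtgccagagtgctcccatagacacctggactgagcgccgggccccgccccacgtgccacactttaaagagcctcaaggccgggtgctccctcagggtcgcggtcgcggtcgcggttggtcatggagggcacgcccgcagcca
P2ry1, chr3:61002535-61002834, plus strand: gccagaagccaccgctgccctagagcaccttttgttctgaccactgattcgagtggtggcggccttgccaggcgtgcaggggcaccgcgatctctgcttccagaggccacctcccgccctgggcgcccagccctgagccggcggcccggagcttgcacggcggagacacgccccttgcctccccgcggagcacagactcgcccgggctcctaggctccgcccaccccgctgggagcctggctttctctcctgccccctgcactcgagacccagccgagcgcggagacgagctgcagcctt
Sstr2, chr11:113619077-113619376, plus strand: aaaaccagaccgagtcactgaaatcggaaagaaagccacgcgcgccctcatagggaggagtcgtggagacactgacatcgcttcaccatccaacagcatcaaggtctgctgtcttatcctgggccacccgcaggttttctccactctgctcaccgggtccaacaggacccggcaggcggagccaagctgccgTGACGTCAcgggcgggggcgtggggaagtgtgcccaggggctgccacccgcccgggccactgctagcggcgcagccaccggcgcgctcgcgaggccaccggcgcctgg

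RefSeq windows were found for 24 of the 31 receptor genes, 32 windows in all, and for 7 of the 9 receptors past the threshold, 12 windows. TGACGTCA, which reads the same on both strands, was in 1 of the 32 windows, that of Sstr2 at position -58 from the start, and in 1.79% of all 32851 promoter windows. TTCNNNGAA, a STAT5-type site that also reads the same on both strands, was in 0 of the 32 windows and in 8.3% of all. Neither was found in the 12 windows of the receptors that rose or fell. Those windows ranged from 46.3% G or C in 1 Cnr1 window to 76.3% in another Cnr1 window, with a median of 52.7% over all promoters.

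Of 5 nutrient and metabolite receptors listed only 2 were measured, Ffar2 and Casr, and these moved in opposite directions. Ffar2, the receptor for short-chain fatty acids such as acetate and propionate, had signals of 2705, 2684 and 2634 on the pregnant arrays, against 1510, 1468 and 1868 on the non-pregnant arrays. All 3 pregnant arrays lay above the highest non-pregnant array. The mean was 2674 ± 36.4 in pregnant and 1615 ± 220 in non-pregnant islets (SD, n = 3 each). This is a ratio of 1.66, and on the log2 scale it is 0.73 ± 0.09 (SE, limma adjusted p = 3.5e-04). A second Ffar2 probe set, with 1621, 2001 and 1771 on pregnant arrays and 935.3, 902.3 and 983.3 on non-pregnant arrays, also rose, by 0.92 ± 0.09 (limma adjusted p = 7.0e-05). Both readings of the gene thus separated the groups without overlap. Blood leukocytes are also known to express Ffar2. Of 7 macrophage markers tested 1 rose, C1qa, and 0 fell, with summed signals of 9037 to 10100 on pregnant and 5732 to 6276 on non-pregnant arrays. Most of that sum was C1qa itself, with means of 7299.5 on pregnant and 3504.87 on non-pregnant arrays, so the sum mainly repeats this 1 gene. The log2 difference was 1.06 for C1qa, 0.06 for Ptprc, the pan-leukocyte antigen CD45, and -0.28 for Csf1r, the macrophage growth factor receptor. The part of such cells in the Ffar2 result was not tested.

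Casr, the calcium-sensing receptor that reads extracellular calcium, fell. Its signals were 533.3, 494.4 and 545.6 on the pregnant arrays and 767.1, 679.2 and 696.6 on the non-pregnant arrays, with no overlap. The ratio of the means was 0.734 and the log2 difference -0.43 ± 0.10 (limma adjusted p = 0.020). A second Casr probe set had 82.5 to 102.3 on pregnant and 119.2 to 217 on non-pregnant arrays, again without overlap, and did not pass (-0.77 ± 0.24, limma adjusted p = 0.068). The first probe set did not pass when each array was centred on its median (limma adjusted p = 0.084). It also missed the threshold without pregnant replicate 1 (0.059), pregnant replicate 2 (0.077) or non-pregnant replicate 1 (0.063).

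**Figure D2:**
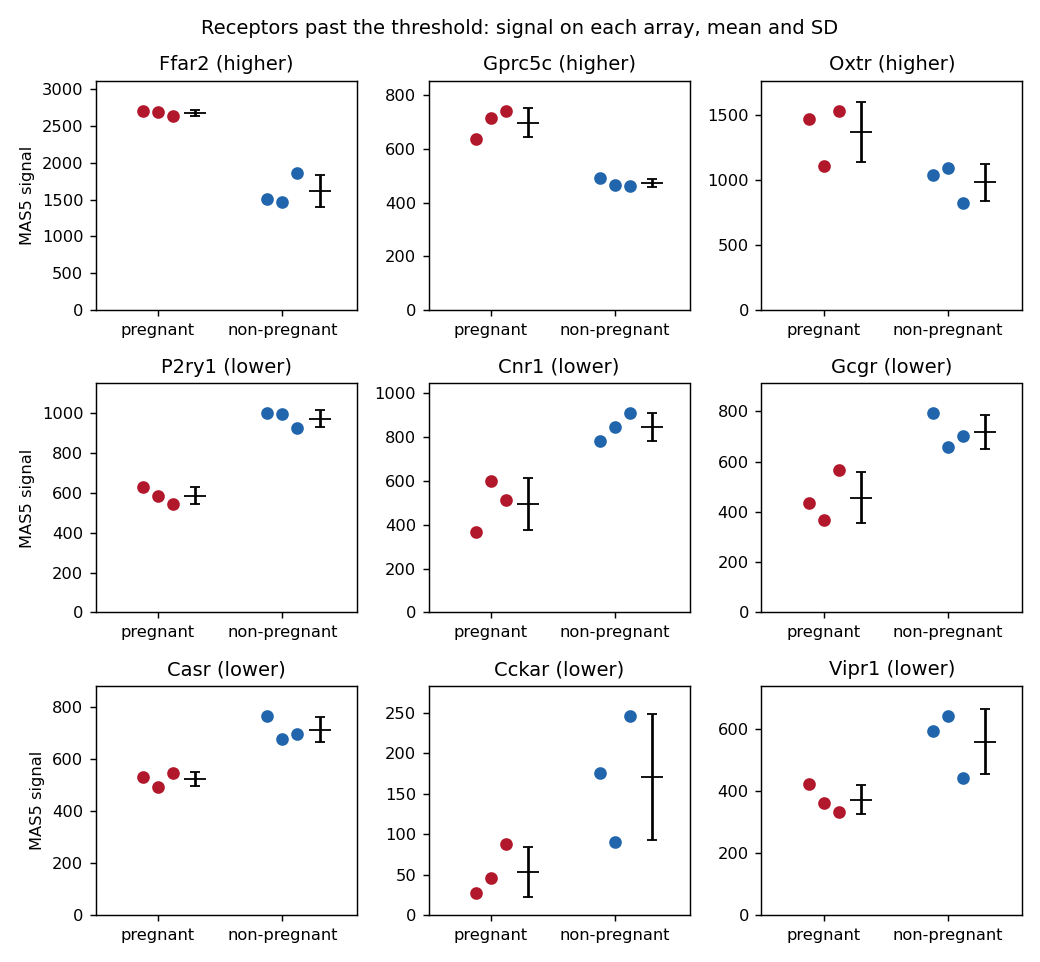
MAS5 signal (y axis, linear from 0) of the 9 receptors that passed the threshold on the 3 pregnant (red) and 3 non-pregnant (blue) arrays; the bar beside each group is its mean and SD. In all 9 panels the 2 groups do not overlap, and the gap is narrowest against the spread in Oxtr and Cckar.

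Among the class B peptide hormone receptors, which couple mainly to Gs, 2 of 7 tested fell, 0 rose and 5 did not pass. Over all genes tested 5.79% were lower. Gcgr, the glucagon receptor, had signals of 437, 368.3 and 566.2 on the pregnant arrays, against 792.4, 659.7 and 700.9 on the non-pregnant arrays. The groups did not overlap, with a gap between 566.2 and 659.7. The log2 difference was -0.65 ± 0.15 (limma adjusted p = 0.016), with means of 457 ± 100.5 and 718 ± 67.9 in pregnant and non-pregnant islets. The call was lost without pregnant replicate 1 (0.063), pregnant replicate 2 (0.061) or non-pregnant replicate 1 (0.057). Vipr1, the VPAC1 receptor for the neuropeptides VIP and PACAP, had 421.9, 360.4 and 329.9 on pregnant arrays and 592.2, 641.2 and 439.9 on non-pregnant arrays. The groups were separated by a small gap, between 421.9 and 439.9. Its log2 difference was -0.56 ± 0.15 (limma adjusted p = 0.039). It passed in 6 of the 18 alternative settings, and of the 6 arrays only without non-pregnant replicate 3 (0.011; otherwise 0.051 to 0.14). A second, dimmer Vipr1 probe set, below the filter, had 79, 24.8 and 34.3 on pregnant and 65.8, 25.6 and 46.6 on non-pregnant arrays, which overlapped, with a log2 difference of -0.04. With both probe sets averaged the Vipr1 difference was -0.30 (limma adjusted p = 0.52).

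The incretin receptors did not pass. Glp1r, the receptor for glucagon-like peptide 1, had 1208, 1263 and 1232 on pregnant arrays and 875.7, 1215 and 1235 on non-pregnant arrays, which overlapped. Its log2 difference was 0.17 with a 95% interval of -0.09 to 0.43, and that of Gipr, the receptor for the other incretin, GIP, was -0.02 with an interval of -0.34 to 0.30 (limma adjusted p = 0.45 and 0.97). Gipr signals were 388.9 to 517.4 in pregnant and 377.2 to 524.1 in non-pregnant islets. The corticotropin-releasing factor receptor Crhr1, which urocortin 1 also activates, had -0.76 ± 0.29 (limma adjusted p = 0.13), with 68.8, 56.8 and 139.5 on pregnant and 171.4, 139 and 145.7 on non-pregnant arrays. These groups overlapped by the highest pregnant array alone, and without it, pregnant replicate 3, the difference was -1.09 (limma adjusted p = 0.027). Crhr1 passed with only this 1 array left out, and with others left out the limma adjusted p was up to 0.34. A second Crhr1 probe set had -0.09. Crhr2 (-0.10 ± 0.30) and the PACAP receptor Adcyap1r1 (-0.34 ± 0.43) had limma adjusted p-values of 0.89 and 0.71. On the 3 pregnant arrays Adcyap1r1 ranged from 24.7, which is dim, to 156.3.

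P2ry1, a Gq-coupled receptor for ADP, was the only purine receptor measured. It fell, with 630.3, 584.6 and 546.2 on the pregnant arrays against 1000, 995.2 and 924.9 on the non-pregnant arrays. The 2 groups were far apart relative to their spread, at 587 ± 42.1 in pregnant and 973 ± 42.0 in non-pregnant islets. The ratio of means was 0.603 and the log2 difference -0.72 ± 0.10 (limma adjusted p = 6.2e-04). P2ry1 and Ffar2 were the receptors that passed in all 18 alternative settings, at limma adjusted p of at most 0.029 for P2ry1 and 0.040 for Ffar2. Endothelial cells are known to carry P2ry1 too; 1 of 10 endothelial markers tested, Flt1, fell and 0 rose, with summed signals of 9195 to 10261 on pregnant and 10314 to 10948 on non-pregnant arrays. The part of those cells in the P2ry1 result was not tested.

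Of the lipid mediator receptors, Cnr1, the Gi-coupled cannabinoid receptor 1, fell. Signals of 366, 601.2 and 511.4 on the pregnant arrays stood against 783.1, 844.8 and 908.6 on the non-pregnant arrays, with no overlap. The mean was 493 ± 119 in pregnant and 846 ± 62.8 in non-pregnant islets. Their ratio was 0.583, and the log2 difference was -0.78 ± 0.15 (limma adjusted p = 0.0071). Cnr1 passed without any 1 of the 6 arrays, but not without the variance trend (0.092), with the acinar level of each array as a covariate (-0.61, 0.33) or with its 2 probe sets averaged (-0.62, 0.056). The second, dimmer Cnr1 probe set had 45.9 to 72 on pregnant and 54.1 to 102.8 on non-pregnant arrays, which overlapped. Its difference of -0.46 ± 0.31 did not pass (limma adjusted p = 0.44). Lpar1, a receptor for lysophosphatidic acid, and Ptger3, the prostaglandin E2 receptor EP3, did not pass, with -0.12 ± 0.17 and -0.26 ± 0.23 (limma adjusted p = 0.76 and 0.57). The dimmest of the 3 Lpar1 probe sets had -1.09 ± 0.40 (limma adjusted p = 0.12), a larger size than the brightest, and was dim on 2 of 3 pregnant arrays.

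Oxtr, the oxytocin receptor, was at the edge of the threshold. It had 1468, 1106 and 1532 on the pregnant arrays and 1040, 1089 and 821.6 on the non-pregnant arrays, so that the lowest pregnant array lay just above the highest non-pregnant one. The ratio of means was 1.39 and the log2 difference 0.47 ± 0.13 (limma adjusted p = 0.049). It passed in 7 of 18 alternative settings. Without pregnant replicate 1, pregnant replicate 3, non-pregnant replicate 1 or non-pregnant replicate 3 the adjusted p was 0.18, 0.17, 0.067 and 0.16. A second Oxtr probe set had 225.3 to 292.1 on pregnant and 30.0 to 253.1 on non-pregnant arrays, which overlapped (1.04 ± 0.48, limma adjusted p = 0.23).

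Cckar, the cholecystokinin receptor that drives enzyme secretion in rodent acinar cells, had the lowest log2 difference of the list, -1.43 ± 0.38 (limma adjusted p = 0.036). Its signals were 27, 45.3 and 87.8 on the pregnant arrays, of which the first is dim, and 176, 90.3 and 246.6 on the non-pregnant arrays. The groups were separated by a gap between 87.8 and 90.3. The mean was 53.4 in pregnant and 171 in non-pregnant islets. The filter's 50.5 applied to the mean log2 value over all 6 arrays. Pregnant signals of 27 and 45.3 lay below it, so that Cckar passed the filter by its higher non-pregnant signals. The centred median of the acinar markers, in log2 units, was -0.89, -0.58 and -0.23 on pregnant replicates 1, 2 and 3 and 0.93, -0.12 and 0.94 on non-pregnant replicates 1, 2 and 3. The array order of Cckar within each group was that of the acinar median. With that median as a covariate the Cckar difference was -0.01 (limma adjusted p = 0.99). That median also separated the groups without overlap, so acinar level and pregnancy cannot be told apart here. The part of acinar cells in the Cckar result was not tested. Of the 6 arrays, leaving out pregnant replicate 1, pregnant replicate 2, non-pregnant replicate 1 or non-pregnant replicate 3 ended the call (0.13, 0.096, 0.10 and 0.15). Without the filter the adjusted p was 0.097. With a pseudocount of 64 in place of 16 the difference was -0.98, since Cckar is near the dim range.

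The same covariate was applied to the other receptors. Ffar2 (0.88, limma adjusted p = 0.014) and P2ry1 (-0.84, 0.029) passed with it. Gprc5c (0.66, 0.11), Oxtr (0.30, 0.63), Cnr1, Gcgr (-0.36, 0.57), Casr (-0.33, 0.46) and Vipr1 (-0.96, 0.063) did not. Without the variance trend Ffar2 (0.040), Gprc5c (0.047) and P2ry1 (0.026) passed and the other 6 did not (0.074 to 0.20). Over all probe sets the covariate left 1.95% past the threshold, so that calls were lost across the table and not in the receptors alone.

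**Figure D3:**
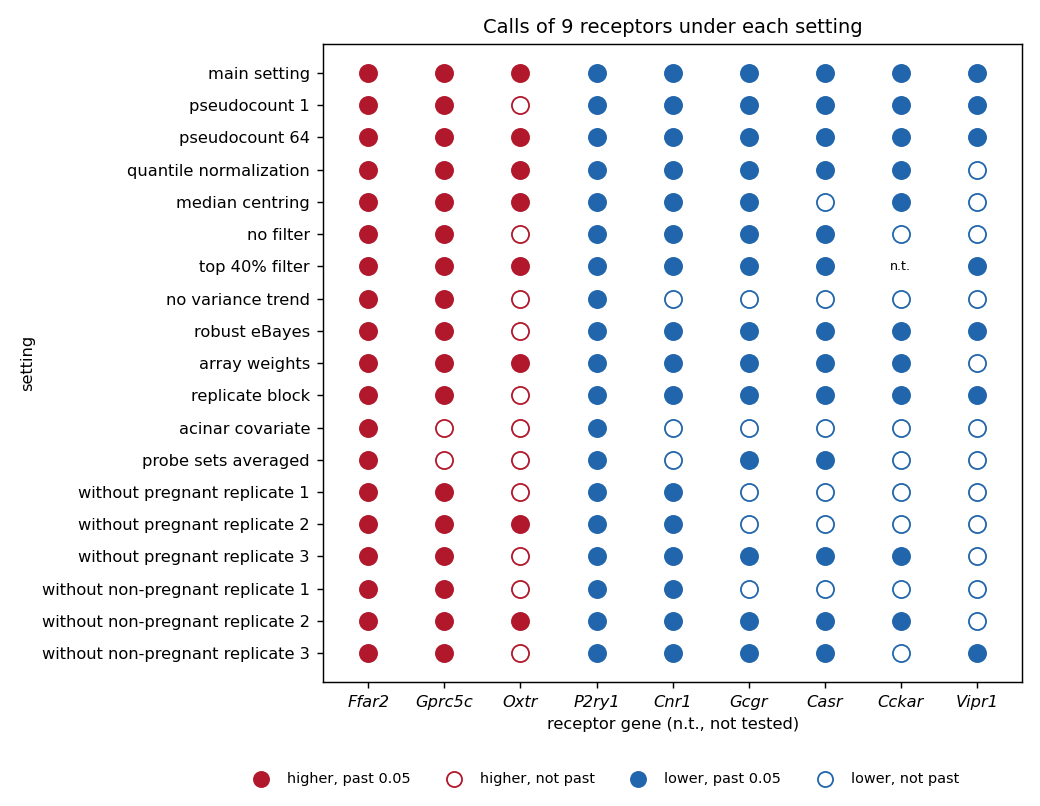
Calls of the 9 receptors (x axis) in the main setting and 18 alternatives (y axis); a filled circle is past an adjusted p of 0.05, an open one is not, red is higher and blue lower in pregnancy, and n.t. means not tested. The columns of Ffar2 and P2ry1 are filled throughout, and Oxtr and Vipr1 have the most open circles, 11 and 12.

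Gprc5c, Gprc5b and Gpr158 are class C receptors that were long listed as orphans, without a known ligand. Gprc5c, a retinoic acid-inducible family member, rose, with 635.6, 714.5 and 741 on the pregnant arrays against 491.1, 463.6 and 462.2 on the non-pregnant arrays. Each pregnant array exceeded every non-pregnant one. Its ratio of means was 1.48 and its log2 difference 0.54 ± 0.11 (limma adjusted p = 0.0065), and it passed without any 1 of the 6 arrays. A second, dimmer Gprc5c probe set had 0.07 ± 0.32, and the average of both readings did not pass (0.30, limma adjusted p = 0.25). Its relative Gprc5b had 122.6, 95.1 and 60.1 on pregnant and 139.6, 194.3 and 125.5 on non-pregnant arrays, without overlap. The Gprc5b difference of -0.66 ± 0.27 did not pass (limma adjusted p = 0.16), and its second probe set had 0.42 ± 0.42. Gpr158 had 75.5 to 100.9 on pregnant and 104.4 to 151.4 on non-pregnant arrays (-0.40 ± 0.24, limma adjusted p = 0.36). Over the 22 receptors the groups did not overlap in 12, 3 higher and 9 lower, which is 54.5%, and over all genes tested they did not overlap in 31.8%, 13.9% higher and 17.9% lower.

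Somatostatin, made by islet delta cells, restrains insulin and glucagon secretion through Gi-coupled receptors. Sstr2 had signals of 190.5, 127 and 105.3 on the pregnant arrays and 216.6, 240.5 and 197.9 on the non-pregnant arrays. Every pregnant array was below every non-pregnant array, but the difference of -0.61 ± 0.21 did not pass (limma adjusted p = 0.10). Without pregnant replicate 1, its brightest pregnant array, it was -0.83 (limma adjusted p = 0.044). Sstr2 passed with only this 1 array left out, and with others left out the limma adjusted p was up to 0.28. Sstr3 had 3581 to 3854 on pregnant and 3152 to 3893 on non-pregnant arrays, with a log2 difference of 0.11 and a 95% interval of -0.07 to 0.29 (limma adjusted p = 0.47). Its second probe set had 0.20 ± 0.21. Sstr1 was dim on all 6 arrays, at 2 to 3.9, and Sstr5, at 10.9 to 86.4, was too dim to be tested.

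Chrm3, the muscarinic receptor through which acetylcholine acts on beta cells, had 55.7, 99.9 and 107.7 on pregnant and 91, 88.8 and 87.7 on non-pregnant arrays, with -0.06 ± 0.27 (limma adjusted p = 0.93). The 3 pregnant arrays spread on both sides of the non-pregnant ones. Galr1, a Gi-coupled receptor for galanin, which lowers insulin secretion, had 1083 to 1343 on pregnant and 964.9 to 1217 on non-pregnant arrays. Its log2 difference was 0.18 with a 95% interval of -0.06 to 0.41 (limma adjusted p = 0.38), and its second probe set had -0.09 ± 0.17.

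The 9 receptor genes below the filter were Sstr1, Sstr5, Adra2c, Npy1r, Ghsr, Cckbr, Drd2, Avpr1b and Vipr2, and they have values but no test. Of these, 2 were dim on all 6 arrays, Sstr1 and Avpr1b, a vasopressin receptor with signals of 3.3 to 26.7. Drd2, a Gi-coupled dopamine receptor, was above 32.3 on 1 array alone, a non-pregnant one at 34.3. Adra2c, an alpha-2 adrenergic receptor that couples to Gi, was dim on none, at 40.3 to 54.3 on pregnant and 38.2 to 42.3 on non-pregnant arrays. Npy1r, a neuropeptide Y receptor, and Ghsr, the ghrelin receptor, were each dim on 1 non-pregnant array, at 14.4 and 6.3. Cckbr, the gastrin receptor, and Vipr2, the VPAC2 receptor, were dim on 2 pregnant arrays and 1 non-pregnant array each. In all 9 the groups overlapped. A signal in the TrpnX range says that these probe sets did not measure a level there, not that the transcript was absent.

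**Figure D4:**
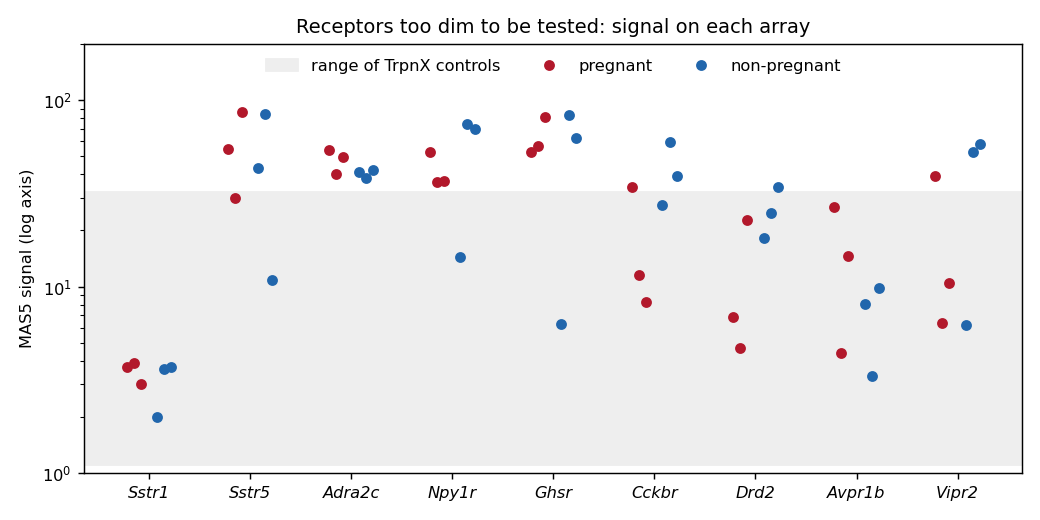
MAS5 signal (y axis, log scale) of the 9 receptor genes below the filter on the 3 pregnant (red) and 3 non-pregnant (blue) arrays, with the 1.1 to 32.3 range of the TrpnX controls in grey. Sstr1 and Avpr1b lie within the grey band on all 6 arrays, and Adra2c lies above it on all 6.

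Ligands of these receptors that islets or nerves make were measured on the same arrays. Of 18 ligand genes 11 were tested, 0 rose and 2 fell, which is 18.2% against 11.9% of all genes tested. Ghrl, the ghrelin that acts on Ghsr, had 258.4, 313.5 and 447.1 on pregnant and 759.6, 729.1 and 761.9 on non-pregnant arrays (-1.14 ± 0.16, limma adjusted p = 9.8e-04). Gal, the galanin that acts on Galr1, had 173.7, 197.8 and 222.8 on pregnant and 441.1, 291 and 392.4 on non-pregnant arrays (-0.85 ± 0.17, limma adjusted p = 0.0089). For both, the pregnant arrays lay below all non-pregnant arrays. Neither passed with the acinar covariate, with -0.79 for Ghrl and -0.31 for Gal (limma adjusted p = 0.18 and 0.65). The difference was -0.04 ± 0.05 for Gcg, glucagon, and -0.04 ± 0.04 for Sst, somatostatin. Both genes have signals near the highest of an array, where a change could be missed. Vip, a ligand of Vipr1, ranged from 1147 to 3427 on the pregnant arrays and from 1227 to 1444 on the non-pregnant arrays (0.62 ± 0.28, limma adjusted p = 0.20).

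Inside the cell, of 22 G protein subunit genes tested 2 rose and 0 fell. These were Gnai1 and Gnai2, which encode the inhibitory alpha subunits that lower cAMP. Gnai1 had 5493, 5432 and 5353 on the pregnant arrays against 3571, 3670 and 3360 on the non-pregnant arrays, a log2 difference of 0.62 ± 0.06 (limma adjusted p = 5.6e-05). Gnai2 had 10264, 10357 and 9876 on pregnant arrays against 7236, 7707 and 7561 on non-pregnant arrays, 0.44 ± 0.05 (limma adjusted p = 3.2e-04). In both genes the spread within a group was small beside the gap. The third member, Gnai3, had 0.21 ± 0.07 and did not pass, and Gnas, the stimulatory alpha subunit, had 0.02 ± 0.05. The list's 9.09% called compares with 11.9% over all genes tested, and its median was 0.04.

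Of 29 genes of cAMP synthesis, breakdown and effectors tested, 3 rose and 1 fell, which is 13.8% against 11.9% of all genes tested. The list median was -0.12. Those higher were Pde7b, a cAMP phosphodiesterase (0.65 ± 0.12, limma adjusted p = 0.0059), Prkar2b, a regulatory subunit of protein kinase A (0.51 ± 0.08, 0.0019), and Crem, a cAMP-responsive transcription factor (0.35 ± 0.08, 0.021). Adcy6, an adenylyl cyclase, fell by 0.27 ± 0.07 (limma adjusted p = 0.040). Crem and Adcy6 did not pass without some 1 array, with adjusted p of up to 0.084 and 0.14. In the phospholipase C list 1 of 9 fell and 0 rose, which is 11.1% against 11.9% of all genes tested. This was the protein kinase C isoform Prkcb (-0.26 ± 0.06, limma adjusted p = 0.026, and up to 0.11 without 1 array). The phospholipase C list median was -0.26.

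Regulators of receptor signalling had 5 of 22 tested lower and 1 higher, which is 27.3% against 11.9% of all genes tested. Their median was -0.17. RGS proteins speed up GTP hydrolysis by G protein alpha subunits and so end the signal. Rgs2, which acts on Gq, had 6403, 6805 and 5807 on the pregnant arrays against 15744, 15219 and 13973 on the non-pregnant arrays. The highest pregnant array was thus well below the lowest non-pregnant one, and the log2 difference was -1.24 ± 0.07 (limma adjusted p = 6.4e-07; 3.0e-05 at most without 1 array). Rgs16 had 1177, 1190 and 1140 on pregnant and 1881, 1818 and 1997 on non-pregnant arrays (-0.69 ± 0.08, limma adjusted p = 1.3e-04). Rgs11 (-0.75 ± 0.12, limma adjusted p = 0.0026) and Rgs17 (-0.50 ± 0.12, 0.019) were lower as well. Ramp3, an accessory protein of calcitonin-family receptors, had -0.63 ± 0.16 (limma adjusted p = 0.032), and Rgs4 rose by 0.40 ± 0.08 (limma adjusted p = 0.0096). Without 1 array the adjusted p was up to 0.071 for Rgs17, 0.13 for Ramp3 and 0.052 for Rgs4. Over all 5 lists of signalling genes 6 rose and 9 fell of 93 tested, which is 16.1% against 11.9% of all genes tested. With each array centred on its median 7 rose and 5 fell. With the acinar covariate Rgs2 had -1.33, Rgs16 -0.63 and Rgs17 -0.86, and these passed, as did Gnai1 (0.53, limma adjusted p = 0.026). The adenylyl cyclase Adcy1 did not pass in the main setting (-0.76, limma adjusted p = 0.10) but did with the covariate (-1.74, 0.021). The other signalling genes named as higher or lower lost their calls with it: Gnai2 (limma adjusted p = 0.082), Pde7b (0.21), Prkar2b (0.23), Crem (0.22), Adcy6 (0.70), Prkcb (0.43), Rgs11 (0.28), Ramp3 (0.47) and Rgs4 (0.26), with Ghrl and Gal. Without the variance trend Gnai1, Rgs2, Rgs16 and Ghrl passed.

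**Figure D5:**
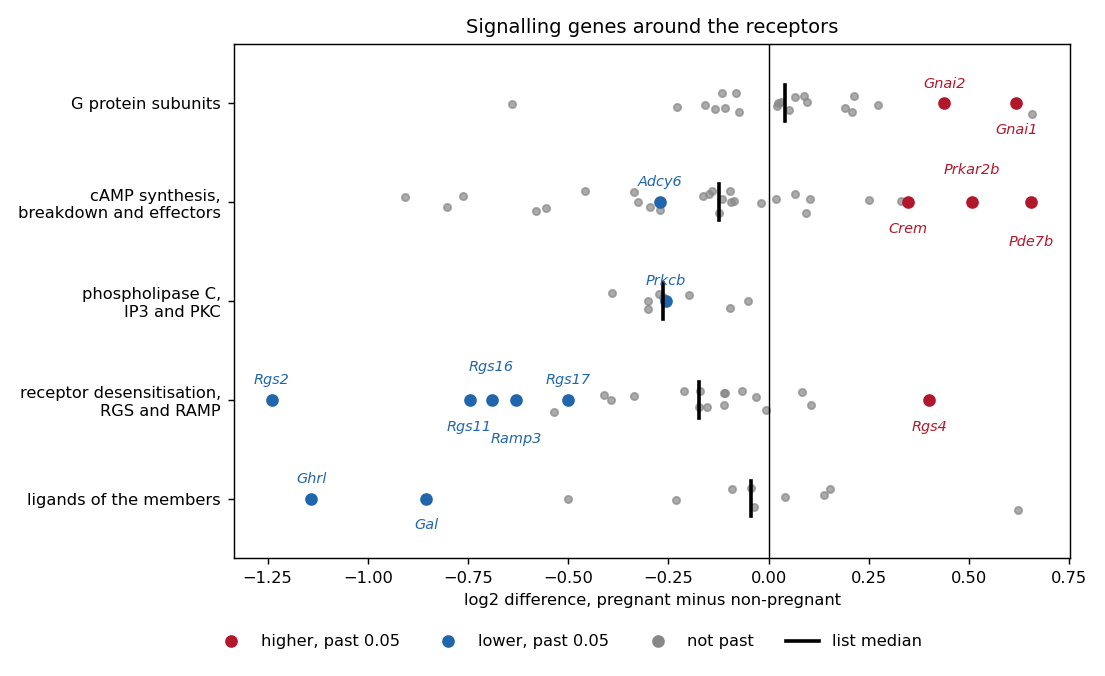
Log2 difference in signal, pregnant minus non-pregnant (x axis), of the tested genes in 5 lists of signalling genes (y axis; height within a list has no meaning), with those past the threshold named in red (higher) or blue (lower) and list medians as black bars. Rgs2 lies farthest to the left at -1.24, and Gnai1 at 0.62 and Gnai2 at 0.44 are the only G protein subunits past the threshold.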

How the data were processed

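The deposited table holds linear intensities, MAS5 signals per the submitters' processing notes, for 3 arrays of pregnant and 3 of non-pregnant islets; the sources used here do not give the MAS5 settings. Of 45101 probe sets, 64 AFFX controls were left out. The platform annotation gave a single symbol to 34958, several to 932 and none to 9211. Values were log2(signal + 16), which understates changes of dim genes, with no further normalization. The top 60% of probe sets by mean over all 6 arrays, 27022, were fitted with limma 3.58.1 in R 4.3.3 (lmFit, eBayes with a variance trend, 2-sided, 4 residual degrees of freedom). The fit was also run on simulated data, with variances drawn from its own fitted trend. That run cannot check whether the trend holds for these arrays. Errors are limma's standard errors for log2 differences and SD for signals, and the number of arrays limits precision. A receptor kept the same probe set in each alternative except the average.

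Alternatives were pseudocounts of 1 and 64, quantile normalization, median centring, no filter and a top 40% filter, no variance trend, robust eBayes, array weights, a block for the replicate number, leaving out 1 array at a time, probe sets averaged and the acinar covariate. The receptor, signalling and marker lists and the naming rule were chosen with earlier results of these data known. Per-array values are given for receptors past the threshold, and for those without overlap and a log2 difference of at least 0.5 in size. The rule named up to 4 genes past the threshold per signalling list, by adjusted p. Rgs17, Ramp3, the signalling genes that did not pass, and the marker genes Bhlha15, Rbpjl, Dcn, Col1a2, Col3a1, Col6a3, Slc2a2, Slc30a8, Irx1, Flt1, C1qa, Ptprc, Csf1r, Ngfr, Prph, Sox10 and S100b were added after their values were seen. Plots used matplotlib 3.10.9 and Python 3.11.15.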

Additional observations from a re-analysis of the deposited data

How the results depend on the processing

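Of the 9 receptors past the threshold, Ffar2 and P2ry1 passed in all 18 alternatives, Gprc5c in 16, Cnr1 in 15, Gcgr in 13, Casr in 12, Cckar in 9 of 17, Oxtr in 7 and Vipr1 in 6, and none changed direction. The main counts were 3 higher and 6 lower. The acinar covariate left 1 higher and 1 lower, with probe sets averaged 1 higher and 3 lower, and without the variance trend 1 was lower. With any 1 array left out, 2 to 3 were higher and 2 to 6 lower: 3 lower without pregnant replicate 1, and 2 without pregnant replicate 2 or non-pregnant replicate 1. For signalling genes the main counts were 6 higher and 9 lower. Without the variance trend 1 was higher and 3 lower, with the acinar covariate 1 and 4, with probe sets averaged 3 were higher, and with median centring 7 were higher and 5 lower. With any 1 array left out, 5 to 6 were higher and 5 to 8 lower, with 5 lower without pregnant replicate 1. With the replicate block 2 receptors were higher and 6 lower, Oxtr being the call lost (0.063), and 6 and 12 signalling genes. Over all probe sets 2587 passed, 1294 higher and 1293 lower; 2013 passed with median centring (1430 higher, 583 lower), 1892 without the filter, 603 without the trend, 526 with the covariate and 1155 with probe sets averaged. Same-numbered arrays did not deviate together (correlations of -0.03, -0.07 and 0.03). Of the pregnant arrays only replicate 3 correlated best with its own number. Whether same-numbered arrays shared a batch or handling is not given in the labels, and these correlations cannot decide it. The medians over all probe sets were -0.04 and, with median centring, 0.03.

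Some receptors that did not pass changed sign. With the acinar covariate Glp1r had -0.0049, Gipr 0.39, Sstr3 -0.083, Chrm3 0.25, Lpar1 0.14, Ptger3 0.38 and Adcyap1r1 0.77. Gipr had 0.034 and 0.059 and Chrm3 0.0080 and 0.016 with quantile normalization and median centring, and Galr1 had -0.14 with probe sets averaged. With 1 array left out, Gipr ranged from -0.14 to 0.090, Chrm3 from -0.21 to 0.19, Adcyap1r1 from -0.78 to 0.26 and Crhr2 from -0.31 to 0.072. The causes were not tested. The dim receptors are limited by signal over background.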

Other observations

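Probe sets of one receptor did not always give the same picture. Of the 31 receptor genes measured, 18 had several probe sets. Adcyap1r1 is an example below the filter: a second probe set had signals of 68.1, 71.6 and 56.1 on the pregnant arrays and 11.9, 56 and 12.3 on the non-pregnant arrays, a log2 difference of 1.07 with no test. Its groups just failed to overlap, while the probe set used above had -0.34. The remaining Adcyap1r1 probe set was dim on all 6 arrays. Adra2c had 3 further probe sets, of which 2 were dim on all 6 arrays.

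Neural markers moved in both directions beside the neuropeptide receptors. Of 6 tested, Ngfr, the low-affinity neurotrophin receptor, rose, with 331.9, 340.6 and 288 on the pregnant arrays and 101.5, 115.6 and 70.4 on the non-pregnant arrays (1.61 ± 0.20, limma adjusted p = 3.3e-04). With the acinar covariate Ngfr had 1.20 and did not pass (limma adjusted p = 0.099). The neurofilament protein Prph, peripherin, fell by 1.18 ± 0.29 (limma adjusted p = 0.024), and by 0.30 with the acinar covariate, which did not pass. The Schwann cell markers Sox10 and S100b had -0.39 and -0.45 and did not pass. The summed signal of the neural and Schwann cell markers was 2359 to 2777 on pregnant and 2852 to 3092 on non-pregnant arrays.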
